A study of Solea senegalensis with 8 samples.

Results

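Small RNA of whole Senegalese sole (Solea senegalensis) embryos at the 20-somite stage (20S) was compared between incubation at 21°C and at 15°C. Both 20S libraries of the series were chosen, 2 of its 8, and all 320 miRNAs of the deposited table were taken, with no selection on their values. The eggs came from natural spawning of a captive broodstock and were kept at 15°C or 21°C in triplicate tanks. RNA of the triplicate samples was pooled before sequencing, so each temperature has 1 library. The difference between the libraries has no replicate check in the reads, and no p-value or standard deviation can be given for it. The other 6 libraries cover 75% epiboly (75Ep), hatching (Hatch) and metamorphosis stage 3 (Met), again with 1 library for each temperature. Larvae of both groups were moved to 21°C after hatching, so at 20S the groups still differed in their water temperature. The labels name no strain, age in hours or sex, and neither group carried any other treatment.

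miRNAs are short RNAs that guide the silencing complex to messenger RNAs, whose translation or stability is then lowered. Each is cut from a hairpin precursor that yields a pair of strands, named -5p and -3p, of which the major one is usually kept and the minor one degraded. In vertebrate embryos segmentation is the period in which somites form in sequence and give rise to skeletal muscle, while the neural tube, eye, skin and first blood cells take shape. Some miRNAs are known from a single tissue (miR-206 in skeletal muscle, miR-124 in neurons, miR-203 in skin), and the miR-430 family is known in zebrafish for clearing maternal messenger RNAs. Development in fish runs faster in warmer water, so the groups here were matched by stage and not by age.

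The 20S library had 3320266 trimmed reads at 15°C and 2564327 at 21°C, of which the 320 miRNAs took 23.1% and 22.3%. The deposited log2 of the percent of trimmed reads was turned back into reads, and folds are ratios of percents of trimmed reads. A miRNA was compared when it had at least 10 reads in at least 1 of the 2 libraries, and 2-fold was used as the size of difference that is counted. Intervals in parentheses are exact 95% intervals of the counts. They cover counting error only, since reads from PCR without molecular identifiers are not independent molecules and the spread between fish is not known. The libraries held reads of muscle, neural, epithelial and eye miRNAs. miR-451 of red blood cells was close to absent, at 10 reads at 15°C and 9 at 21°C. The lists used below, by family or by the tissue a miRNA is known from, are described by counts and medians. Where a median at another minimum of reads or scaling differs by over 1.5 times, it is added in parentheses for all lists but those whose median is within 0.05 of 0.

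miRNA profiles at both temperatures were much alike at 20S. Each library held 254 detected miRNAs, 238 of them in both, 16 at 15°C alone and 16 at 21°C alone, and 50 of the 320 were read in neither. Of those read in 1 library alone, none passed 8 reads except miR-148. A total of 185 miRNAs could be compared, of which 13 were at least 2-fold higher at 21°C (7.03%) and 18 at least 2-fold lower (9.73%), 31 in all (16.8%). The other 154 were within 2-fold and 117 within 1.5-fold. Higher values at 21°C were found for 94 and lower values for 91, and the median log2 difference was 0.02, with quartiles of -0.42 and 0.32. Counting error alone is not the limit for most of them, since the intervals of 117 folds left out 1, among them 89 that were within 2-fold. Across the 184 compared miRNAs read in both libraries, the log2 levels had a Pearson r of 0.94, a description in which miRNAs are not independent replicates.

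**Figure D1:**
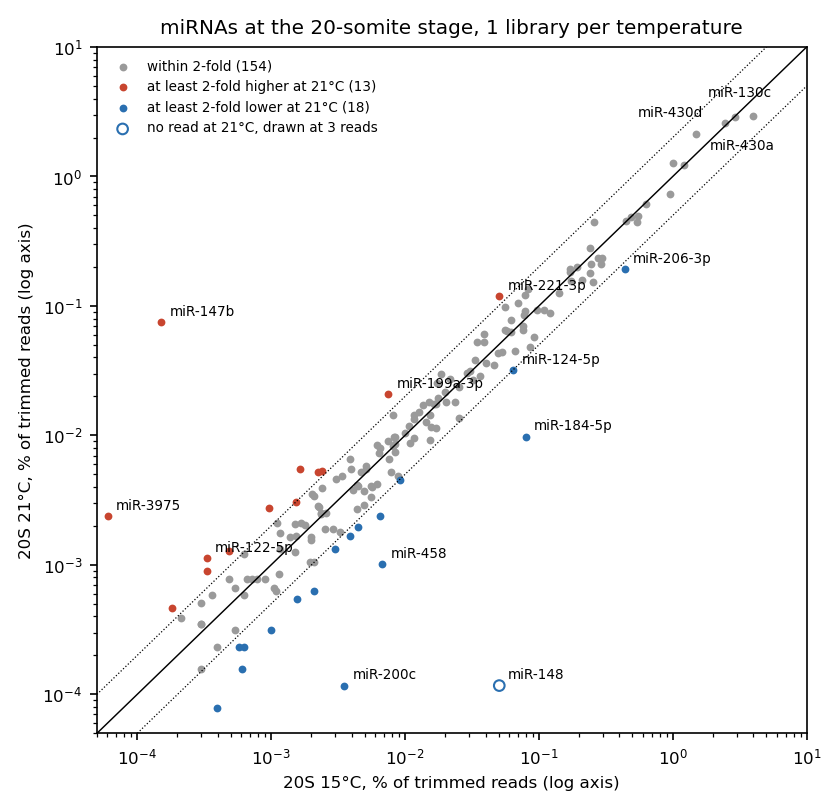
Level of each of the 185 compared miRNAs at the 20-somite stage as a percent of trimmed reads, at 15°C on the horizontal and at 21°C on the vertical log axis, 1 library per temperature and 1 point per miRNA. The solid line marks equal levels and the dotted lines 2-fold; 154 points lie between the dotted lines, and miR-147b, miR-3975, miR-148, miR-200c and miR-184-5p lie farthest from them.

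The most abundant miRNAs were the same at both temperatures, apart from the last of the 10. miR-130c, of the family that miR-130 shares with miR-301, led both libraries with 132906 reads (4.0%) at 15°C and 75558 (2.95%) at 21°C, a level 1.36-fold lower at 21°C (1.35 to 1.37). Then came miR-430a, with 96358 and 74207 reads, and miR-430d, with 81629 and 66383. miR-203a, which in skin holds back the proliferation of keratinocyte precursors, had 49509 and 54120 reads and was 1.42-fold higher at 21°C (1.4 to 1.43). miR-10d, from a Hox cluster, was among the first 10 at 15°C and miR-20a-5p at 21°C. The first 10 took 68.1% and 68.8% of all miRNA reads. Of the 61 miRNAs with at least 1000 reads in 1 library, 2 were at least 2-fold higher and 4 at least 2-fold lower at 21°C. Of all compared miRNAs these shares were 7.03% and 9.73%.

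Both of the most extreme differences came from neighbouring rows of the table and went in opposite directions. miR-148, related to miR-152 and known from liver lipid metabolism in mammals, had 1681 reads at 15°C and 0 at 21°C. A count of 0 allows up to 3 reads, or 0.000117% of this library, so miR-148 was at least 433-fold lower at 21°C. miR-147b, in the row before it, had 5 reads at 15°C and 1924 at 21°C, or 498-fold more (213 to 1540). In the other 6 libraries miR-148 had between 45 and 6477 reads and miR-147b between 0 and 47. The 20S library at 21°C was thus the only one of the 8 with more than 47 reads of miR-147b and the only one with no read of miR-148. Summed, the reads of the pair were 1686 at 15°C and 1924 at 21°C, a 1.48-fold higher level at 21°C (1.38 to 1.58). Whether a value stands in the wrong row was not tested. Without these miRNAs 12 were at least 2-fold higher and 17 at least 2-fold lower at 21°C.

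Among miRNAs with at least 100 reads, the 10 with the largest folds toward 15°C were led by miR-148, miR-200c, miR-184-5p and miR-458, and miR-206-3p had the most reads of them. miR-200c, an epithelial miRNA known to repress the Zeb factors, had 117 reads at 15°C and 3 at 21°C (30.1-fold lower, 10.1 to 148.2). In the paper's list its sequence contains the whole of that of miR-200b-3p, so the split of reads between these rows is uncertain. miR-184-5p, a strand of the eye miRNA miR-184, had 2653 and 251 reads (8.16-fold lower, 7.17 to 9.33), and miR-458 had 224 and 26 (6.65-fold lower, 4.42 to 10.4). These 3 had the lowest ratios after miR-148, and the counting intervals of their folds reach no lower than 4.42. miR-214-5p had 215 and 61 reads (2.72-fold lower, 2.04 to 3.68), and miR-206-3p, the skeletal muscle miRNA, had 14568 and 4921 (2.29-fold lower, 2.21 to 2.36). miR-27a stood at 129.49 and 43 reads (2.33-fold lower, 1.64 to 3.37), and its value at 15°C is not a whole number of reads. The remaining ones were close to 2-fold. miR-150, known from lymphocytes, had 147 and 50 reads (2.27-fold lower, 1.64 to 3.20). miR-16a, of a family that restrains the cell cycle, had 307 and 117 (2.03-fold lower, 1.63 to 2.53). miR-124-5p, a strand of the neuronal miR-124, had 2128 and 814 (2.02-fold lower, 1.86 to 2.19). Rescaled to the summed miRNA reads, miR-16a (log2 difference -0.97) and miR-124-5p (-0.96) fell short of 2-fold.

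Higher at 21°C, after miR-147b, were miR-9a-5p, miR-199a-3p, miR-205-3p, miR-221-3p and miR-15a. miR-9a-5p, known for the timing of neurogenesis, had 55 reads at 15°C and 142 at 21°C (3.34-fold higher, 2.43 to 4.65). miR-199a-3p, expressed with miR-214 from one transcript in mammals, had 250 and 533 (2.76-fold higher, 2.37 to 3.22). miR-205-3p, a strand of the epithelial miR-205, had 74 and 134 (2.34-fold higher, 1.75 to 3.16). The only one of these with more than 1000 reads was miR-221-3p, which is expressed in endothelium and in proliferating cells, at 1687 and 3039 reads (2.33-fold higher, 2.20 to 2.48). miR-15a had 80 and 137 reads (2.22-fold higher, 1.67 to 2.96). The next were under 2-fold, namely miR-1788-5p at 1.79-fold, miR-181a-5p at 1.74-fold, miR-205-5p at 1.72-fold and miR-143-3p at 1.69-fold. With 1 pooled library per temperature, the reads cannot set any of these differences against the spread between embryos.

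Differences past 2-fold were also found in miRNAs with fewer than 100 reads in both libraries, and the following were chosen after their values were seen. miR-3975 went from 2 reads at 15°C to 61 at 21°C, miR-466i had 32 and 71, and miR-449b had 11 and 23. In the other direction miR-458a-5p had 70 and 16 reads, miR-130a had 33 and 8, miR-137a-5p had 20 and 4, and miR-338-5p had 19 and 6. Both strands of miR-187 were higher at 21°C, with 51 and 79 reads of miR-187-3p and 6 and 12 of miR-187-5p. miR-187-3p was under 2-fold when centred on the median miRNA (log2 difference 0.98), and the fold intervals of miR-338-5p and miR-187-5p include 1.

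Muscle miRNAs were compared because the study was about growth, and here their summed level was lower at 21°C, at 0.477% of trimmed reads at 15°C and 0.228% at 21°C (0.479-fold, 0.465 to 0.494). Nearly all of this came from miR-206-3p. Of the 9 compared muscle miRNAs none was at least 2-fold higher and 2 were at least 2-fold lower, miR-206-3p and miR-1a-5p (21 and 6 reads), where 7.03% and 9.73% of all compared miRNAs were, and the median log2 difference was -0.28 (-0.13 with at least 100 reads). The others with most reads lay on either side. miR-133b-3p had 567 and 451 reads (1.03-fold, 0.908 to 1.17), miR-133b-5p had 389 and 244 (0.812-fold, 0.689 to 0.956), and miR-1a-3p, the main strand of the muscle and heart miRNA miR-1, had 80 and 101 (1.63-fold, 1.21 to 2.22). In whole embryos fewer cells of a type and less RNA per cell cannot be told apart, which holds for every tissue list here.

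The miR-430 and miR-17-92 families, both abundant, differed little between temperatures. Of all compared miRNAs 83.2% were within 2-fold, so that small lists are often wholly within it. The miR-430 family had 4 compared members, all within 2-fold, with a median log2 difference of -0.02. miR-430c, with 9872 reads at 15°C and 5974 at 21°C, was the lowest of them at 0.784-fold (0.759 to 0.809), while the rare miR-430e had 85 and 64. The miR-17-92 cluster and its relatives, known for driving proliferation, had 19 compared members, all within 2-fold, against 83.2% of all. Together they took 3.6% and 3.59% of trimmed reads. Its 4 most abundant members were miR-17a-5p (1.02-fold), miR-19b-3p (0.969-fold), miR-20a-5p (0.989-fold) and miR-93 (1.16-fold). The list median was -0.05. The medians of these families change sign with the scaling used and do not tell a direction.

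miR-130, miR-301 and miR-454 were lower as a family. Their 8 compared members had a median log2 difference of -0.42 (-0.23 with at least 100 reads), with 7 of the 8 lower at 21°C, and their sum was 4.97% and 3.75% of trimmed reads (0.755-fold, 0.749 to 0.761). After miR-130c, the member with most reads was miR-301c, with 18292 and 12617 (0.893-fold, 0.873 to 0.914). miR-130b-3p had 9698 and 5373 (0.717-fold, 0.694 to 0.742) and miR-130b-5p 3634 and 2388 (0.851-fold, 0.808 to 0.896). At least 2-fold lower were the sparse miR-130a and miR-301a-5p (99 and 34 reads), and none was at least 2-fold higher, against 9.73% and 7.03% of all. Members of this family and of miR-430 resemble each other in sequence, so that the split of reads among them depends on how the authors assigned reads and is uncertain. In the paper's list of sequences miR-133b-3p and miR-133c have the same sequence, as do miR-27c and miR-27d.

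Epithelial miRNAs together were higher at 21°C, at 3.03% and 4.11% of trimmed reads (1.36-fold, 1.34 to 1.37). Of 10 compared, 1 was at least 2-fold higher (miR-205-3p) and 1 at least 2-fold lower (miR-200c), close to the 7.03% and 9.73% of all miRNAs, and the median log2 difference was 0.24 (0.14 with at least 1 read). The higher sum lay in miR-203a, miR-203b-3p and miR-205-5p of skin and in miR-200a-3p. miR-203b-3p had 33380 and 32644 reads (1.27-fold higher, 1.25 to 1.29), miR-205-5p had 8589 and 11389 (1.72-fold higher, 1.67 to 1.77), and miR-200a-3p had 2759 and 3437 (1.61-fold higher, 1.53 to 1.70). Of the 10 compared, 6 were higher and 4 lower at 21°C. Among the lower were other rows of the skin miRNAs, miR-203b-5p (2839 and 1228 reads, log2 difference -0.84) and the rare miR-205b (13 and 6 reads). The rest of the miR-200 family was mixed. miR-200b-3p had 1535 and 903 reads (0.762-fold, 0.701 to 0.827), beside the low count of miR-200c. The paper's sequence of miR-200b-3p lies wholly within that of miR-200c, so they may not be separate observations. miR-429-3p, of the same family, had 1921 and 1639 (1.10-fold, 1.03 to 1.18).

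The miRNAs of the eye and sensory organs were lower at 21°C in sum, at 1.18% and 0.844% of trimmed reads (0.716-fold, 0.705 to 0.728). miR-204, known from the lens and retina, made up most of them with 31815 and 18720 reads (0.762-fold, 0.748 to 0.776). Of the 7 compared, miR-184-5p alone was past 2-fold, against 16.8% of all, and the median log2 difference was -0.10 (-0.25 with at least 100 reads, -0.05 rescaled). miR-184-3p, the main strand of the same precursor, had 3067 and 1465 reads (0.618-fold, 0.581 to 0.658). miR-183, of the cluster that serves hair cells and photoreceptors, had 840 and 606 (0.934-fold, 0.840 to 1.04). The partner miR-182-5p had 549 and 449 (1.06-fold, 0.933 to 1.20). The difference was thus carried by miR-204 and both strands of miR-184 and was not seen in miR-182-5p.

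Neural miRNAs showed no common direction. Of 15 compared, 1 was at least 2-fold higher at 21°C (miR-9a-5p) and 2 at least 2-fold lower (miR-124-5p and the sparse miR-137a-5p), shares near the 7.03% and 9.73% of all miRNAs, and the median log2 difference was 0.16 (0.30 with at least 100 reads). miR-218a, carried in the Slit genes and known from motor neurons, was the most abundant, with 4657 and 3231 reads (0.898-fold, 0.859 to 0.94). miR-124-3p, the strand that acts in neurons, had 577 and 655 (1.47-fold higher, 1.31 to 1.65), opposite to its partner miR-124-5p. miR-128 of the brain had 666 and 559 (1.09-fold, 0.969 to 1.22).

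**Figure D2:**
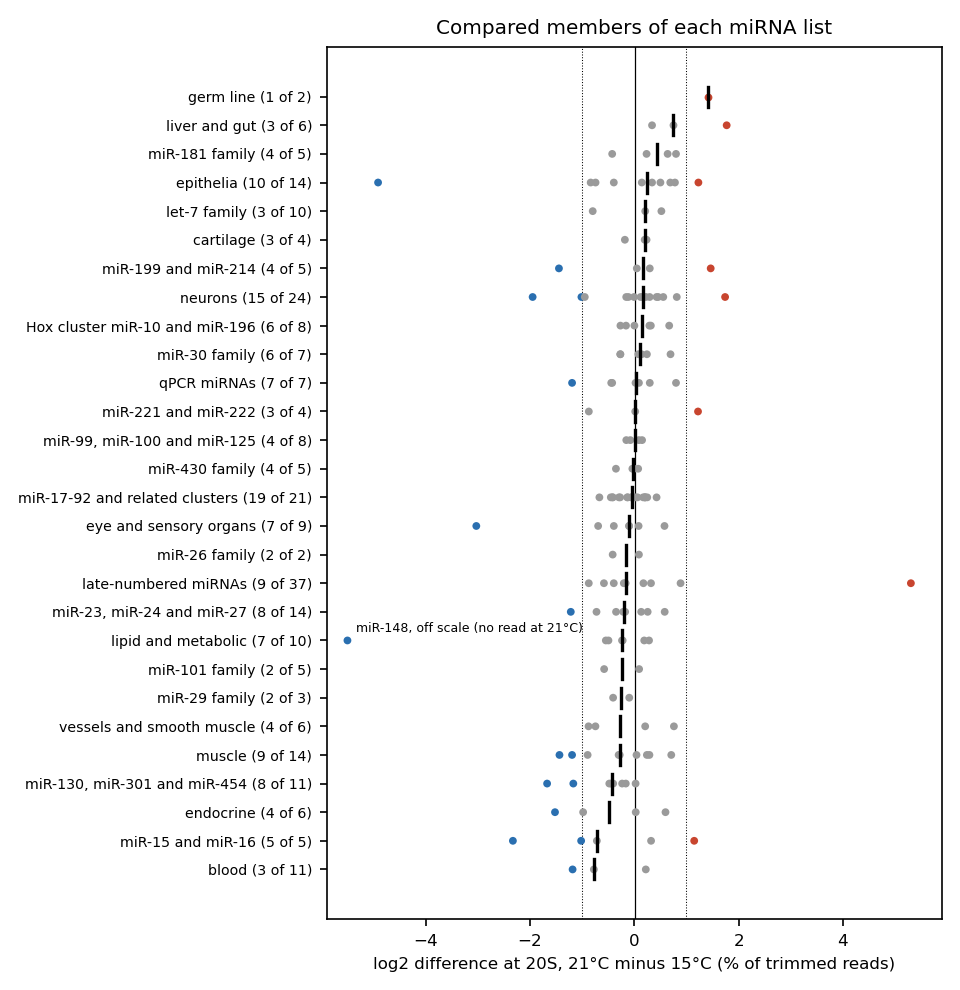
Log2 difference at the 20-somite stage, 21°C minus 15°C, of each compared member of the lists (points, red at least 2-fold higher, blue at least 2-fold lower, grey within 2-fold), with the list median as a black bar and the numbers of compared and listed members in parentheses. The solid vertical line is the median of all 185 compared miRNAs (0.02) and the dotted lines mark 2-fold; list medians run from -0.78 for blood to 1.42 for the single germ line member, and miR-148 is drawn at the left edge.

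miRNAs of connective tissue, cartilage and vessels had no common direction. The list of miR-199 and miR-214, known from mesenchyme, had 4 compared members with a median log2 difference of 0.17. It held miR-199a-3p among the higher and miR-214-5p among the lower. miR-199a-5p (215 and 204 reads, 1.23-fold, 1.01 to 1.49) and miR-214-3p (268 and 214 reads, 1.03-fold, 0.860 to 1.24) were near equal. The cartilage miRNAs miR-140-3p (0.882-fold), miR-140-5p (1.15-fold) and miR-455a (1.18-fold) were within 2-fold, as were 83.2% of all compared miRNAs. Their median was 0.20 (0.01 with at least 100 reads). Of vessels and smooth muscle, 4 were compared with a median of -0.27 (-0.69 with at least 1 read). Within this list the strands of miR-126a were lower, and miR-143-3p and miR-145 were higher. Among those compared, endothelium is represented by 1 precursor. The miRNA miR-221-3p, also expressed in endothelium but kept in another list, was higher (log2 difference 1.22). miR-126a-3p and miR-126a-5p, from an intron of an endothelial gene, had 835 and 351 reads and 510 and 235 reads (1.84-fold lower, 1.62 to 2.09, and 1.68-fold lower, 1.43 to 1.96). miR-143-3p and miR-145 of smooth muscle had 130 and 170 reads and 1099 and 981 reads (1.69-fold higher, 1.34 to 2.14, and 1.16-fold higher, 1.06 to 1.26).

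Blood miRNAs were sparse and mostly lower at 21°C. Only 3 of 11 listed could be compared, with a median log2 difference of -0.78 and 1 past 2-fold, miR-150, against 16.8% of all. miR-223-3p, known from myeloid cells, had 164 and 74 reads (1.71-fold lower, 1.29 to 2.28). The counts of miR-451 given above do not resolve a difference (1.17-fold, 0.419 to 3.19).

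The miRNAs of the Hox clusters and the families linked to developmental timing had no member past 2-fold, against 16.8% of all compared miRNAs. For miR-10 and miR-196, 6 were compared, all within 2-fold, with a median log2 difference of 0.15 (0.29 with at least 1 read). miR-10d had 17839 and 11459 reads (0.832-fold, 0.812 to 0.852), miR-10b 14941 and 11556 (1.0-fold, 0.977 to 1.03), and miR-10c 5743 and 3973 (0.896-fold, 0.860 to 0.933). miR-196a, from the posterior Hox clusters, had 2070 and 1992 (1.25-fold higher, 1.17 to 1.33). The highest of the list was miR-10a, named after its values were seen, with 618 and 759 (1.59-fold higher, 1.43 to 1.77). The 4 compared miRNAs of the miR-99, miR-100 and miR-125 list had a median of 0.01, with miR-99a-5p at 0.899-fold, miR-125b-5p at 1.11-fold, miR-125a at 0.949-fold and miR-100 at 1.06-fold. let-7, a family that accumulates with differentiation, was barely present at this stage. Of 10 listed, 3 could be compared, with a median of 0.21 (0.37 with at least 100 reads). They were let-7g (281 and 251 reads, 1.16-fold, 0.972 to 1.38), let-7a (112 and 124, 1.43-fold higher, 1.10 to 1.87) and let-7j (36 and 16, 0.575-fold, 0.298 to 1.06).

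miRNAs of liver and gut were rare at 20S, while those of endocrine cells and metabolism included abundant ones. In liver and gut, 3 were compared and 1 was past 2-fold, against 16.8% of all, with a median log2 difference of 0.75 (0.34 with at least 100 reads). miR-122-5p, the chief liver miRNA, had 11 and 29 reads (3.41-fold higher, 1.66 to 7.57), miR-192 had 450 and 440 (1.27-fold higher, 1.11 to 1.45), and miR-194a had 10 and 13 (1.68-fold, 0.682 to 4.29). The endocrine list had 4 compared members with a median of -0.48, which turned to 0.31 with at least 100 reads or at least 1 read. In it miR-217 of the pancreas, with 52 and 14 reads, was 2.87-fold lower at 21°C (1.57 to 5.61). miR-216b, its neighbour in vertebrate genomes, had 69 and 27 (1.97-fold lower, 1.25 to 3.20). Against this, miR-375 of islet cells had 2328 and 2722 reads (1.51-fold higher, 1.43 to 1.6), and miR-7a had 2049 and 1613 (1.02-fold, 0.954 to 1.09). The list of lipid metabolism had 7 compared members with a median of -0.23 (-0.36 with at least 100 reads), of which miR-148 alone was past 2-fold, against 16.8% of all. Its most abundant members were miR-107-3p (9117 and 5983 reads, 0.850-fold), miR-103a-3p (0.857-fold) and miR-152-3p (1.22-fold). The paper lists miR-107-3p and miR-103a-3p with the same sequence, so they are not separate observations and the list median may count them doubly. miR-202-5p, known from germ cells and gonads, had 16 and 33 reads (2.67-fold higher, 1.43 to 5.2) and was the single compared member of its list.

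Among other conserved families, that of miR-15 and miR-16 was the one with most members past 2-fold. Of its 5 members, 1 was at least 2-fold higher and 2 at least 2-fold lower, where 16.8% of all miRNAs were past 2-fold, and the median was -0.72 (-0.20 with at least 100 reads). miR-16b, its main member, had 8386 and 3938 reads (1.64-fold lower, 1.58 to 1.71), miR-16c had 13 and 2, and miR-15b had 719 and 694 (1.25-fold higher, 1.12 to 1.39). Thus the miR-16 members were lower and the miR-15 members higher at 21°C. In the miR-221 and miR-222 family miR-221-3p was higher, whereas miR-222a-3p (1023 and 800 reads, 1.01-fold, 0.922 to 1.11) was not, and the median of 3 was 0.02 (0.62 with at least 1 read). The 8 compared miRNAs of the miR-23, miR-24 and miR-27 clusters had a median of -0.19 (-0.02 with at least 100 reads) with miR-27a past 2-fold. Its close relative miR-27b-3p (184 and 86 reads, 0.605-fold, 0.463 to 0.786) was lower as well, and miR-27c (102 and 118, 1.5-fold, 1.14 to 1.97) was higher. miR-23a-3p (1.19-fold), miR-23b (0.886-fold) and miR-24a-3p (1.10-fold) were close to equal. No member was past 2-fold in the miR-30 (6 compared, median 0.11), miR-29 (2 compared, median -0.25), miR-101 (2 compared, median -0.24, or -0.63 with at least 1 read) and miR-26 (2 compared, median -0.16) families. Their most abundant members were miR-30c (1.10-fold), miR-29b (0.935-fold), miR-101b (1.07-fold) and miR-26a (5704 and 4685 reads, 1.06-fold, 1.02 to 1.11). The list of 37 miRNAs with late miRBase numbers, many of them little known in fish, had 9 compared members with a median of -0.17 (-0.39 with at least 100 reads, 0.37 with at least 1 read), of which miR-3975 alone was past 2-fold. The most abundant of these were miR-4286 (0.761-fold), miR-3968 (0.668-fold), miR-4454 (0.891-fold) and miR-1260b (0.870-fold).

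The 7 miRNAs that the study took on to qPCR had a median log2 difference of 0.02 at 20S, with 1 of them, miR-206-3p, past 2-fold, against 16.8% of all. The study picked them, so this count is not independent of these libraries. The miR-181 family, known from muscle differentiation and lymphocytes, showed the clearest split among them. miR-181a-5p went from 1869 reads at 15°C to 2513 at 21°C (1.74-fold higher, 1.64 to 1.85), and miR-181a-3p, its partner strand, had 8017 and 4615 (1.34-fold lower, 1.29 to 1.39). miR-181b (2606 and 3135 reads, 1.56-fold higher, 1.48 to 1.64) and miR-181c (275 and 250 reads, 1.18-fold, 0.988 to 1.4) were not lower at 21°C. The 4 compared members of the family were all within 2-fold, with a median of 0.44.

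The share of a precursor's reads that comes from each strand does not depend on library size or on the divisor of the table. Both strands were read and 1 of them reached 100 reads for 36 precursors. The minor strand was taken as the one with fewer reads over the 6 libraries of other stages, so that the 20S libraries did not choose it. The share of the minor strand was lower at 21°C in 21 precursors and higher in 15, and its 95% intervals at the 2 temperatures lay apart in 12, of which 8 were lower and 4 higher at 21°C. Where the minor strand had at least 10 reads, it was lower in 13 and higher in 12 of 25, so the precursors as a whole had no common direction. Over all 36 precursors the median log2 difference was -0.32 for minor strands and 0.07 for major strands. Over the 25 it was -0.29 and 0.06.

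Large shifts were seen in a few named precursors. miR-184-5p took 46.4% of the reads of its precursor at 15°C (45.1 to 47.7) and 14.6% at 21°C (13 to 16.4). miR-124-5p took 78.7% (77.1 to 80.2) and 55.4% (52.8 to 58.0), so at 20S the strand that is minor in the sum of the other stages was the more abundant one at both temperatures. miR-181a-3p likewise held 81.1% (80.3 to 81.9) and 64.7% (63.6 to 65.9). In all 3 the minor strand was lower at 21°C. miR-214-5p took 44.5% (40.02 to 49.1) and 22.2% (17.4 to 27.6), a shift of the same direction on fewer reads, 483 at 15°C and 275 at 21°C. The opposite shift was found in miR-199a-3p, at 53.8% (49.1 to 58.4) and 72.3% (68.9 to 75.5), in miR-9a-5p, at 21.0% (16.2 to 26.4) and 39.8% (34.7 to 45.1), and in miR-1788-5p, at 21.8% (19.5 to 24.2) and 32.4% (29.7 to 35.2). The intervals also lay apart for miR-1a-5p, miR-301a-5p, miR-221-5p and miR-203b-5p, all lower, and for miR-130b-5p, which was higher.

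**Figure D3:**
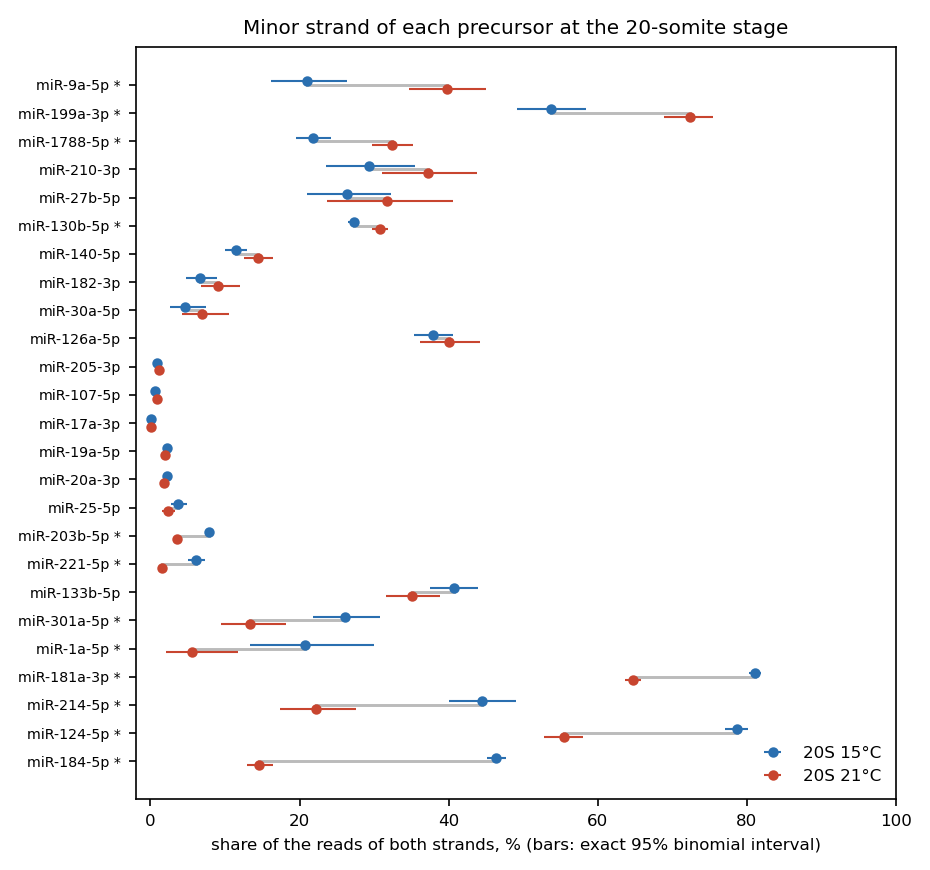
Share of the minor strand in the reads of both strands for the 25 precursors whose minor strand had at least 10 reads, at 15°C (blue) and 21°C (red), with exact 95% binomial intervals as bars and an asterisk where they lie apart. miR-184-5p went from 46.4% to 14.6% and miR-124-5p from 78.7% to 55.4%, while miR-199a-3p went from 53.8% to 72.3%.

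Strand shares at other stages were set beside those at 20S. At Hatch the same 12 precursors shifted in the same direction as at 20S in 9 cases, at Met in 9, and at 75Ep in 4 of the 10 that had enough reads there. These 12 were picked by their intervals at 20S, and agreement was counted for them only. Over all precursors, the minor share was lower at 21°C in 23 and higher in 12 at Hatch. It was lower in 15 and higher in 18 at Met, and lower in 13 and higher in 17 at 75Ep. miR-184-5p held 37.6% and 16.8% of its precursor's reads at Hatch, but 31.5% and 67.1% at 75Ep. For miR-181a-3p the shares were 70.3% and 43.0% at Hatch and 53.3% and 73.7% at 75Ep. For miR-9a-5p the share at Hatch went the other way from 20S, with 39.1% and 2.26%. No difference between stages was tested, since each rests on 1 library.

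By the median of the miRNAs that rose, the 20S libraries lay between those of 75Ep and Hatch at similar places at both temperatures. Of the compared miRNAs, 126 increased at least 4-fold from 75Ep to Hatch. The change was read from the 75Ep and Hatch libraries, while the minimum of 10 reads at 20S left these 126 of the 147 rising miRNAs. At 20S these had gone a median of 77.7% of that log2 distance at 15°C (quartiles 66.9% and 87.1%) and 76.3% at 21°C (58.9% and 86.7%). Their median log2 difference between temperatures at 20S was 0.07, with 72 higher and 54 lower at 21°C, and 6 and 9 past 2-fold. The 58 miRNAs without such a change had a median of -0.19, with 7 and 9 past 2-fold, and the single falling one was miR-451. Of all 185 compared miRNAs, 13 (7.03%) were at least 2-fold higher and 18 (9.73%) at least 2-fold lower. All miRNAs together took 6.84% and 6.59% of trimmed reads at 75Ep, at 15°C and 21°C. At Hatch they took 24.9% and 30.5%. The rises and the positions at 20S therefore include this change in the total miRNA share.

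**Figure D4:**
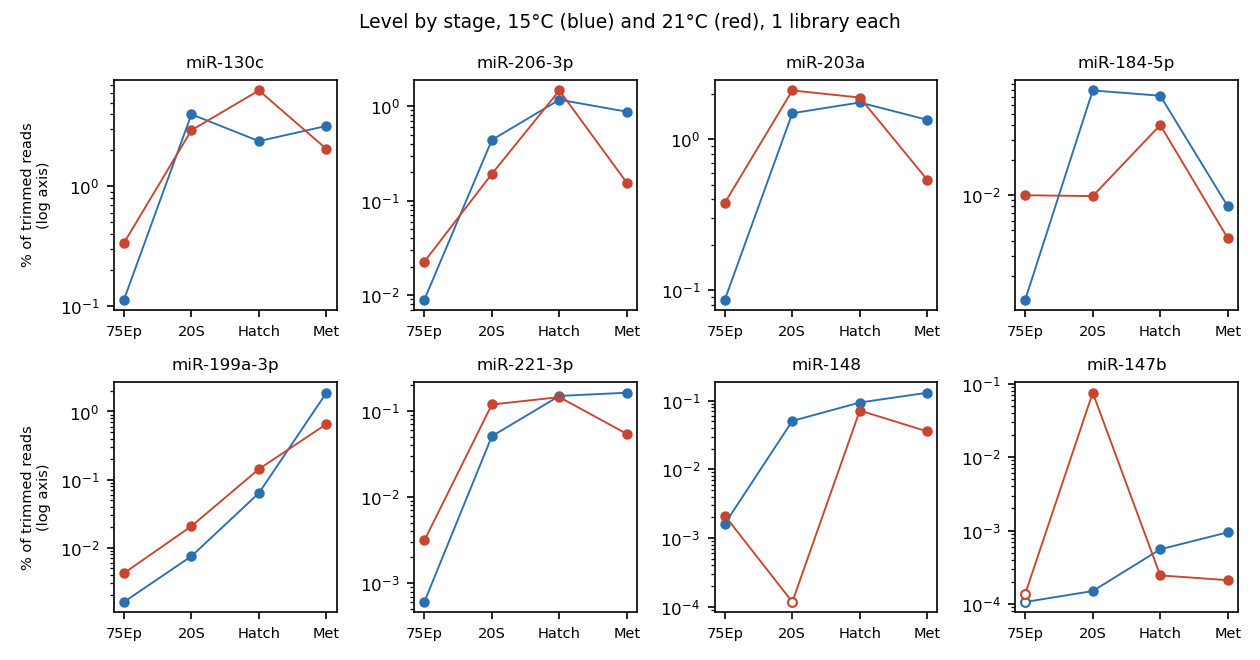
Level of 8 miRNAs as a percent of trimmed reads (log axis) over the stages 75Ep, 20S, Hatch and Met, at 15°C (blue) and 21°C (red), 1 library per point and open circles where no read was found, drawn at 3 reads. At 20S miR-206-3p and miR-184-5p were lower and miR-221-3p and miR-199a-3p higher at 21°C, and miR-148 and miR-147b departed from their levels at neighbouring stages in the 20S library at 21°C.

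The temperature differences of the other stages were set beside those at 20S, and the difference between stages was not tested. At 75Ep 57% of 149 compared miRNAs were at least 2-fold higher at 21°C and 6.71% at least 2-fold lower, with a median log2 difference of 1.17. At Hatch these were 10.3% and 11.7% of 214, with a median of -0.09, and at Met 2.99% and 68.8% of 234, with a median of -1.39. Past 2-fold in either direction were 63.8% at 75Ep, 22% at Hatch and 71.8% at Met, against 16.8% at 20S. At Met the miRNAs took 46.0% of trimmed reads at 15°C and 17.9% at 21°C. Rescaled to the summed miRNA reads, the median at Met was -0.03, with 25 at least 2-fold higher and 28 lower. Rescaled medians were 1.22 at 75Ep, with 85 and 9, and -0.38 at Hatch, with 15 and 47. The interquartile range was 0.73 at 20S, 1.88 at 75Ep, 0.89 at Hatch and 0.99 at Met. Among miRNAs with at least 100 reads it was 0.65, 1.57, 0.71 and 0.96 in the same order, and depth differed between the stages, with 142964 to 191673 miRNA reads at 75Ep. With each stage centred on its median miRNA, 83.8% were within 2-fold at 20S, 53.0% at 75Ep, 78.5% at Hatch and 77.8% at Met.

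**Figure D5:**
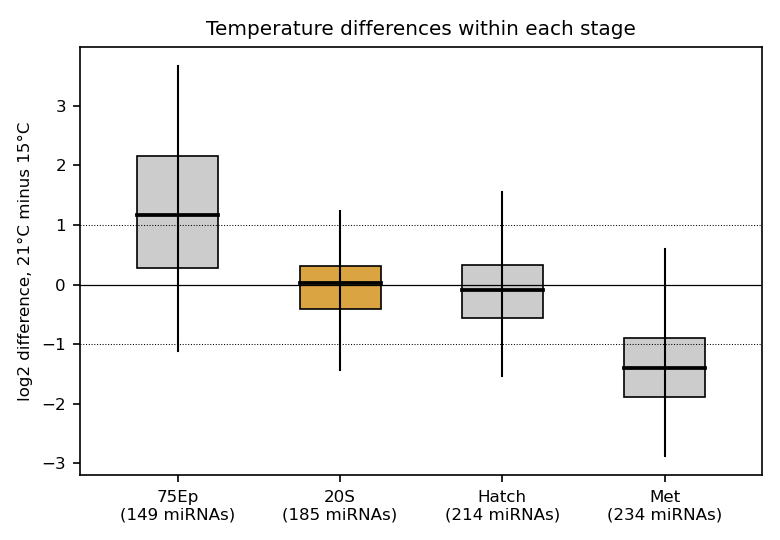
Distribution over miRNAs of the log2 difference between 21°C and 15°C within each stage (box, quartiles; thick line, median; thin line, 5th to 95th percentile; dotted lines, 2-fold), with the number of compared miRNAs under each stage and 20S in colour. The 20S box is centred near 0 and spans -0.42 to 0.32, while the medians at 75Ep and Met are 1.17 and -1.39.

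The miRNAs past 2-fold at 20S were followed at the other stages, where the median miRNA also differed between temperatures. Of the 18 that were lower at 21°C at 20S, 11 could be compared at 75Ep, where 9 were higher at 21°C and 2 lower. At Hatch 7 of the 18 were higher and 11 lower, and at Met 2 and 16. Of the 13 that were higher at 20S, 6 were higher and 2 lower at 75Ep, 5 and 7 at Hatch, and 2 and 10 at Met. At 75Ep and Met these counts follow the direction of all miRNAs at the stage. Centred on the median miRNA of each stage, the lower set had 6 higher and 5 lower at 75Ep, 7 and 11 at Hatch and 9 and 9 at Met, and the higher set 6 and 2, 8 and 4, and 6 and 6. The values of single miRNAs that follow are not centred, and the medians of all compared miRNAs were 1.17 at 75Ep, 0.02 at 20S, -0.09 at Hatch and -1.39 at Met. miR-206-3p had log2 differences of 1.34 at 75Ep, -1.19 at 20S, 0.33 at Hatch and -2.50 at Met. miR-199a-3p was higher at 21°C at each stage before Met, with 1.4, 1.46 and 1.17, and at -1.53 at Met. miR-458 was at -1.12, -2.73, -0.51 and -0.99, of which the value at Met is above the median of all miRNAs there (-1.39). miR-221-3p was at 2.37, 1.22, -0.05 and -1.59. miR-130c, the most abundant miRNA at 20S, was at 1.58, -0.44, 1.41 and -0.64. Near the stage medians were miR-206-3p and miR-199a-3p at 75Ep, and miR-199a-3p and miR-221-3p at Met.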

How the data were processed

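The data are 1 table of 320 miRNAs in 8 SOLiD small RNA libraries. The authors trimmed the reads in CLC Genomics Workbench 4.9, removed other small RNAs by BLAST, annotated miRNAs against miRBase 18 and deposited, for each miRNA, the log2 of its reads as a percent of all trimmed reads in that library, with -46.51 for no read. Library totals and reads were recovered from these log2 values, and 99.5% of 2033 values above the lowest were whole reads within 0.01 read. Values under 1 read counted as undetected.

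The 20S libraries were compared as percents of trimmed reads, without a test, for miRNAs with at least 10 reads in 1 library. A library with no read was set to 0.5 read for log2 differences and to 3 reads for bounds. Intervals were exact conditional binomial intervals for folds and Clopper-Pearson intervals for shares, at 95%. The scripts were tested on simulated data.

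The members and the 28 lists were chosen with earlier results of these data known. Named are the 10 most abundant miRNAs per library, the 10 largest folds in each direction among those with at least 100 reads, the qPCR miRNAs, up to 4 members of each list (all where 5 or fewer were compared), strand pairs, and rows that share a miRNA number with a named miRNA and move the other way. Other names are marked where they appear. The settings varied were rescaling to summed miRNA reads, centring on the median miRNA, other minimum reads and fold thresholds, other treatments of 0, and leaving out values that are not whole reads. Added after the data were seen were leaving out miR-147b and miR-148, and strand pairs with at least 10 minor reads. No miRNA sequence or position is shown. Apart from the paper's list of sequences, no reference for them was used here. Python 3.11.15, numpy 2.4.6, pandas 2.3.3, scipy 1.17.1 and matplotlib 3.10.9 were used.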

Additional observations from a re-analysis of the deposited data

Results flagged for a closer look

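The temperature differences of 10 miRNAs at 20S were opposite in sign to those at a neighbouring stage, at 2-fold or more in both, also after centring on the median miRNA. They were picked for these values. Of the 18 lower and 13 higher past 2-fold at 20S, 11 and 8 could be compared at 75Ep and 18 and 12 at Hatch. Of all compared miRNAs, 16.8% were past 2-fold at 20S, 63.8% at 75Ep and 22% at Hatch. Before centring, 6 of the 11 lower at 20S were at least 2-fold higher at 75Ep, near the 57% of all there. Of the 8 higher at 20S, 1 was at least 2-fold lower at 75Ep, against 6.71% of all. At Hatch 3 of the 18 were at least 2-fold higher and 2 of the 12 at least 2-fold lower, against 10.3% and 11.7% of all. These differences between stages were not tested, since each rests on 1 library per temperature. Against 75Ep, miR-184-5p had a log2 difference of -3.03 at 20S and 3.00 at 75Ep (35 and 216 reads there at 15°C and 21°C), and miR-124-5p had -1.01 at 20S and 2.65 at 75Ep (166 and 805 reads). For miR-214-5p the values were -1.44 and 3.54 (2 and 18 reads at 75Ep), and for miR-301a-5p -1.17 and 2.95 (3 and 18 reads). These 4 are all minor strands by the sum of the other stages, but not at each stage. miR-124-5p held 78.7% and 55.4% of its precursor's reads at 20S and 88.8% and 91.7% at 75Ep, at 15°C and 21°C. miR-184-5p held 67.1% at 75Ep at 21°C. Minor strands were already frequent among the candidates. In the strand pairs, 5 of 25 compared minor strands and 1 of 36 major strands were at least 2-fold lower at 20S. At least 2-fold higher were 3 of 25 and 1 of 36, against 9.73% lower and 7.03% higher of all compared miRNAs. The sparse miR-466i had 1.52 at 20S, and at 75Ep 22 reads at 15°C and none at 21°C.

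Against Hatch, miR-9a-5p had a log2 difference of 1.74 at 20S and -4.70 at Hatch (653 and 19 reads there), while miR-200c had -4.91 and 1.07 (12 and 19 reads). For miR-130a they were -1.67 and 2.37 (11 and 43 reads), and for miR-217 -1.52 and 1.03 (68 and 105 reads). miR-147b had 8.96 at 20S, on the row beside miR-148, and -1.18 at Hatch (24 and 8 reads).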

How the results depend on the processing

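The 2-fold counts at 20S moved with the minimum number of reads and with the fold. With at least 1 read, 43 miRNAs were at least 2-fold higher at 21°C and 28 at least 2-fold lower, of 270, and with at least 100 reads 6 and 10, of 129. A fold of 1.5 gave 32 and 36, and a fold of 4 gave 2 and 5. Rescaling to the summed miRNA reads gave 13 and 16, without miR-16a and miR-124-5p, and centring on the median miRNA 12 and 19. Precursors whose minor strand took a lower share at 21°C numbered 21 of 36, and 13 of the 25 with at least 10 minor reads. Each list median was taken under each setting, and 170 of these values stayed within 0.1 of the main median on the log2 scale. The other 25 moved further, all with another minimum of reads. Rescaling and centring shift all differences by less than 0.1, so they could not move a list median past that limit. Of the values of named miRNAs under each setting, 497 stayed within their counting interval and 23 moved outside it. No difference of 2-fold changed sign. Rescaling shifts all log2 differences by 0.05 and centring by -0.02, and the medians of miR-430, miR-17-92, the miR-99, miR-100 and miR-125 list and the miR-221 and miR-222 list, all within 0.07 of 0, change sign between them. With the minimum of reads, the median of the endocrine list turned from -0.48 to 0.31 (at least 1 and at least 100 reads) and that of the late-numbered miRNAs from -0.17 to 0.37 (at least 1 read). A miRNA without a read may hold up to 3 reads, or 9.04e-05% of the 15°C library and 0.000117% of the 21°C library, so absence cannot be read from a 0. No paired analysis was possible because each stage and temperature has 1 library and the labels give no replicate numbers, and for the same reason no library could be left out.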

Other observations

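Rows that share a miRNA number went opposite ways at 20S in several cases beyond those of the strand pairs. miR-200c was lower at 21°C while miR-200a-3p was 1.61-fold higher, and miR-27a was lower while miR-27c was 1.5-fold higher. miR-205-3p was higher at 21°C, as was miR-205-5p, while the rare miR-205b had 13 reads at 15°C and 6 at 21°C. The 0.346 read deposited for miR-200a-5p at 21°C counted as undetected.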
